A study of Mus musculus with 6 samples.

Results

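Abundant annotated noncoding loci are places in the genome where the authors' assembly matched an annotated transcript, where no transcript of the locus carries a protein identifier, and where many reads were counted. A locus was taken when it had at least 1 transcript that matches an annotated one, no protein identifier in any exon record, and a mean of at least 500 normalized counts over the 6 libraries. Loci on chromosomes X and Y and in 4 intervals on other chromosomes were not analysed here. A normalized count is a locus's read count divided by a size factor of its library. Annotated noncoding loci numbered 1539 of 18420 in all, 276 of these reached 500, and 258 lay within the scope. The loci were thus chosen by their mean normalized count, and their high level is a description and not a result.

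The cells were a mouse embryonic stem (ES) cell line that carries Nkx2.5-EmGFP, a green fluorescent reporter for a heart transcription factor on a bacterial artificial chromosome. The growth protocol gives its background as 129/OlaHsd and its subline as E14Tg2A.4, while the strain label of every sample reads C57BL/6J. At day 0 the cells were undifferentiated and were kept with 1000 U/ml of LIF, a cytokine that maintains ES cells, either on feeder cells (mouse embryonic fibroblasts) or on gelatin. At day 6 they were embryoid bodies, cell aggregates formed from 1000 cells in hanging drops to induce cardiac differentiation. Each stage had 3 libraries of poly(A)-selected RNA, called biological replicates in the design text, and all came from this reporter line. Reads counted in the listed loci numbered 106306699 to 114092201 per library. The identifiers could not be tied to gene names, so loci are given by the assembly's number and their mm9 position, and the cell type of the samples was not checked against marker genes.

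Long noncoding RNAs are transcripts that are not translated into a protein of recognised function, and many are spliced and polyadenylated like messenger RNAs. Some act in the nucleus on transcription or on RNA processing, some serve as precursors of small RNAs, and for many no role is known. Antisense transcripts run across a coding gene on the other strand, and divergent transcripts start near a coding gene's start and run away from it. The mitochondrial genome encodes ribosomal and transfer RNAs as well as proteins, and its transcripts receive short poly(A) tails. A missing protein identifier in the file is therefore the class of a locus in this annotation and does not show that a locus encodes no protein, in particular on the mitochondrial genome.

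Of all normalized counts, the 258 loci held 4.30% ± 0.0447 before differentiation and 3.77% ± 0.131 after it (SD, n = 3 per stage). The shares of day 0 replicates 1, 2 and 3 were 4.32%, 4.25% and 4.33%, and those of day 6 were 3.89%, 3.63% and 3.80%. Every day 6 library lay below every day 0 library, by 0.527 percentage points between the means. A two-sided exact permutation test of 3 values against 3 can give no p under 0.1, which is what it gave. The 8 mitochondrial loci went from 2.29% ± 0.151 to 2.12% ± 0.102 (SD over 3 libraries), and their stages overlapped (exact permutation p = 0.3). The 212 spliced loci, all of them nuclear, held 1.29% ± 0.0470 and 0.937% ± 0.0238 (SD over 3 libraries) without overlap between the stages (exact permutation p = 0.1, the smallest possible). Of them, 45 were called higher and 47 lower at day 6 in the test defined below, so the summed share does not describe each locus. The 248 loci below the 10 most abundant held 1.09% ± 0.0751 and 0.916% ± 0.00537 (SD over 3 libraries), a fall of 0.177 percentage points. The 38 nuclear loci with a single exon held 0.724% ± 0.0695 and 0.722% ± 0.213 (SD, n = 3 each; exact permutation p = 1). In bulk RNA, fewer cells of a type and less RNA per cell cannot be told apart.

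**Figure D1:**
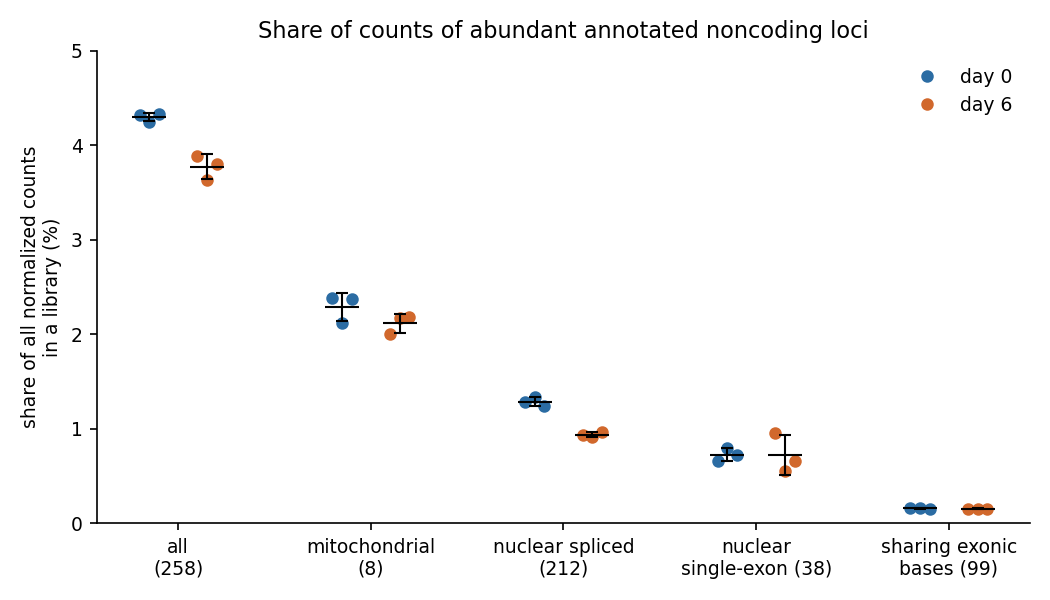
Share of all normalized counts of a library (vertical axis, percent) held by all 258 loci and by 4 groups of them, with 3 points per stage for the libraries, and the mean with SD in black; the number of loci is in brackets, and the last group crosses the others. The share of all loci and that of the spliced nuclear loci lie lower in every day 6 library than in any day 0 library, while the mitochondrial and the nuclear single-exon groups overlap between the stages.

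Few loci held most of these counts. The 3 most abundant held 46.0% of the counts of all 258, 4 loci were enough to pass 50 percent, and the first 10 held 75.1%. The 143 loci with a mean under 2000 held 3.05%. Mean levels ran from 501 to 1279935 normalized counts, with a median of 1632, and 34 loci had a mean of at least 10000. Just above the limit, XLOC_012183, XLOC_000797 and XLOC_019077 had means of 509, 505 and 501, and just below it XLOC_029820, XLOC_015400 and XLOC_021391 had 499, 497 and 495.

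By counts per locus, which grow with length, the most abundant was XLOC_038397, with a single exon on the mitochondrial genome at 5327 to 6938 on the plus strand. It had 1454672, 1221687 and 1241213 normalized counts in the day 0 libraries and 1234561, 1351280 and 1176196 in the day 6 libraries. The stages overlapped, with a change of -0.06 on the log2 scale from day 0 to day 6 (limma, SE 0.14, adjusted p = 0.762). Divided by its length it also stood highest, at 794004 normalized counts per exonic kilobase, and 28.6% of the counts of the 258 loci fell in it. Another 4 mitochondrial loci were among the first 10. XLOC_038401, at 12406 to 15288 on the plus strand, had 303540, 486072 and 490884 normalized counts at day 0 and 394930, 442016 and 455617 at day 6, with day 0 replicate 1 the lowest. Of these 4, XLOC_038404 lies on the minus strand at 11720 to 14070. None of the 8 mitochondrial loci was called changed, and the stages of all 8 overlapped. Together the 8 held 54.5% of the counts of the 258 loci. Their lack of a protein identifier is a class in this annotation only, and whether they encode proteins was not tested.

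XLOC_015110, a single exon of 5837 bases on chromosome 17 (39979941 to 39985777, plus strand), was the fourth most abundant locus. It had 244478, 257199 and 236257 normalized counts in undifferentiated cells and 649159, 134504 and 290449 in embryoid bodies. Day 6 replicate 1 stood above all other libraries and day 6 replicate 2 below them, so that the stages overlapped (log2 change 0.26, SE 0.47, limma adjusted p = 0.689). This locus alone took 0.563% of the counts of day 6 replicate 1 and 0.115% of those of day 6 replicate 2. Without it, the other 249 nuclear loci went from 1.78% ± 0.119 to 1.35% ± 0.0174 (SD over 3 libraries; exact permutation p = 0.1, the smallest possible).

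Of the 10 most abundant loci, XLOC_004759 alone was called changed. It has up to 2 exons, lies on chromosome 11 (77106320 to 77110703, plus strand), and sits within the span of the coding locus XLOC_004758 without sharing an exonic base with a coding locus. It had 138694, 218463 and 222402 normalized counts at day 0 and 73934, 88085 and 79718 at day 6. All day 6 values were below all day 0 values, a fall of 2.40-fold between the means (log2 change -1.23, SE 0.20, limma adjusted p = 0.00156). The coding locus around it fell by 0.64 on the log2 scale (limma adjusted p = 0.0246), and the difference between the 2 changes did not pass the test (-0.60, SE 0.36, limma adjusted p = 0.292). The other abundant nuclear loci, XLOC_000211, XLOC_018288 and XLOC_026640, had log2 changes of -0.38, -0.29 and -0.36, and none passed the test.

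Very short loci were rare. Only 2 of the 258 had under 100 exonic bases and 4 had under 200, against a median of 11840. XLOC_029563 has 74 bases on chromosome 6 (122407229 to 122407302, plus strand) and had 35497, 46273 and 37006 normalized counts at day 0 and 44695, 43869 and 38988 at day 6. XLOC_008863 has 96 bases on chromosome 13 (75782494 to 75782589, plus strand), with values from 42052 to 55801 that overlapped between the stages. Both were chosen for their length after the values were seen, and neither was called changed (limma adjusted p = 0.571 and 0.999). Reads were 100 bases long, longer than either locus, so these counts need not be the level of a transcript of that length. Whether the reads came from longer transcripts was not tested. The assembly gives up to 26 exons per transcript, 14 loci had 10 or more, and 156 had an isoform that departs from the annotated one.

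Between the stages, 101 of the 258 loci were called changed (39.1%), 50 higher in embryoid bodies and 51 lower. Without day 6 replicate 2, 67 were called, 31 of them higher, and without day 6 replicate 1, 72 were called, 31 of them higher. Calls over all tested loci fell too, from 7543 to 5143 without day 6 replicate 2 and to 5307 without day 6 replicate 1. Over all 17145 tested loci 44% were called, 22.2% higher and 21.8% lower, and over tested loci with a mean of at least 500 the shares were 42.7%, 26.2% and 16.5%. A call is a Benjamini-Hochberg adjusted p under 0.05 over all tested loci in limma, on log2(normalized count + 1), a scale that understates changes at low levels. The median log2 change was 0.00 over the 258 loci, 0.02 over all tested loci and 0.12 over tested loci at 500 or more. Day 6 lay wholly above day 0 for 65 loci and wholly below it for 68 (25.2% and 26.4%). Of all tested loci, 57.3% had stages that did not overlap, 29.5% with day 6 above and 27.7% with it below. Of tested loci at 500 or more the shares were 56.8%, 34.6% and 22.2%. Of the called loci, 29 rose and 32 fell by at least 2-fold, and 5 rose and 5 fell by at least 8-fold. Matching counts over all tested loci are not given here. Spliced loci, which are 212 of the 258, made up 45 of the rises and 47 of the falls.

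The level limit was set on both stages together, so a locus could enter through the stage in which it is high. At day 0, 27 of the 258 loci had a mean under 500, of which 17 were called higher at day 6, and at day 6, 23 had a mean under 500, of which 14 were called lower. In the 208 loci that reached 500 in each stage on its own, 33 were higher and 37 lower (33.7% called). No share was computed for all tested loci under this same limit, so 33.7% cannot be set against the shares above. Replicates varied more among undifferentiated cells: the median SD of a locus on the log2 scale was 0.34 at day 0 and 0.13 at day 6, against 0.31 and 0.09 over tested loci of at least 500.

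The largest rise was that of XLOC_026756, which has up to 9 exons on chromosome 5 (38211698 to 38243222, plus strand). It had 32.3, 54.9 and 6.98 normalized counts in undifferentiated cells and 3834, 3756 and 2116 in embryoid bodies. The stages were far apart, and the mean rose 103-fold (log2 change 6.99, SE 0.66, limma adjusted p = 0.000117). Without day 0 replicate 2 the rise was 165-fold (log2 change 7.58), and without day 0 replicate 3 it was 74.2-fold (6.18). The coding locus XLOC_027554, on the opposite strand at 38211715 to 38218792, covers 39.1% of its exonic bases with its own exons. That coding locus was listed at 0 in all day 0 libraries and had 20.3, 14.4 and 21.9 normalized counts at day 6. The sources used here do not say to which locus a read in a shared exon was counted, so the split of counts within such a pair is uncertain.

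XLOC_030084 rose next in size. It is a minus-strand locus of up to 4 exons on chromosome 6 (52257701 to 52268926), and coding exons of the opposite strand cover 51.0% of its exonic bases. It had 26.2, 150 and 15 normalized counts at day 0 and 3675, 3346 and 3486 at day 6. Its mean rose 54.9-fold (log2 change 6.44, SE 0.72, limma adjusted p = 0.000252). Day 0 replicate 2 was the highest of the undifferentiated cells, and the log2 change was 7.39 and the rise 170-fold without it, and 5.77 on the log2 scale without day 0 replicate 3. XLOC_032861, on chromosome 7 (48104526 to 48190773, minus strand), went from 47.1, 48.7 and 37.9 to 1642, 1283 and 1217 normalized counts, a rise of 31.0-fold (log2 change 4.92, SE 0.26, limma adjusted p = 1.02e-05). It is spread over 40641 exonic bases and had 17.5 normalized counts per exonic kilobase, so that its summed count passed the limit at a low level per length.

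XLOC_000870, a single exon of 842 bases on chromosome 1 (24620810 to 24621651, minus strand), was called higher but varied most among the rises. It had 77.6, 630 and 5060 normalized counts in the day 0 libraries and 5293, 6709 and 16177 in the day 6 libraries. Day 0 replicate 3 came close to the lowest day 6 library, and the log2 change of 3.72 had an SE of 1.27 (limma adjusted p = 0.043, from 0.00664 to 0.176 over 17 alternatives, of which 10 ended the call). Leaving out day 0 replicate 1 gave a log2 change of 2.22 and leaving out day 0 replicate 3 one of 5.22, and the 4.89-fold rise of the mean was 26.6-fold without the latter and 3.12-fold when day 6 replicate 3 was left out. The mitochondrial locus XLOC_038399, at 7766 to 8607 on the plus strand, has the same exonic length of 842 bases. It had 9926, 81.8 and 3683 normalized counts at day 0 and 72.0, 138 and 78.3 at day 6. Its stages overlapped and it was not called (log2 change -3.96, SE 1.498, limma adjusted p = 0.0624). XLOC_038398, its neighbour at 7010 to 7699, had 44.5, 848 and 657 normalized counts at day 0 and 689, 101 and 10049 at day 6. These 3 loci had the largest SD among the day 0 replicates on the log2 scale, at 3.64 for XLOC_038399, 3.00 for XLOC_000870 and 2.34 for XLOC_038398. The 2 mitochondrial loci were singled out after their values were seen, and whether they share sequence with the chromosome 1 locus was not tested.

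The other 4 of the 8 largest rises ran from 5.35-fold to 10.1-fold between the means. XLOC_000797 (chromosome 1, 194670401 to 194683231, plus strand) had 108, 69.4 and 96.7 normalized counts at day 0 and 1067, 1076 and 615 at day 6, a rise of 10.1-fold (log2 change 3.29, limma adjusted p = 0.00014). The coding locus XLOC_001584, in whose exons 28.1% of its bases lie, rose by 3.25 on the log2 scale. XLOC_006127 (chromosome 11, 120045517 to 120051280, minus strand) lies over 5 kb from any coding locus and went from 262, 347 and 338 to 2364, 2590 and 1876 normalized counts, a rise of 7.21-fold (log2 change 2.85, limma adjusted p = 5.02e-05). XLOC_033491 and XLOC_028060 rose 6.00-fold and 5.35-fold (log2 changes 2.59 and 2.49, limma adjusted p = 8.69e-05 and 0.000664). In all 8 the day 6 libraries lay above the day 0 libraries, and 5 of the 8 shared exonic bases with a coding locus. These loci were chosen as the largest called rises, so the gap between their stages follows largely from the choice. In 7 of the 8 the day 0 mean was under 500, so those passed the level limit only through day 6.

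The largest fall was that of XLOC_031976, with up to 4 exons on chromosome 7 (91677485 to 91732041, plus strand). It had 2913, 1335 and 10465 normalized counts in undifferentiated cells and 41.6, 25.6 and 74.1 in embryoid bodies. The day 0 replicates themselves spanned a wide range, with replicate 3 highest, and every day 6 value was below all of them. The mean fell 104-fold (log2 change -6.29, SE 0.71, limma adjusted p = 0.000269), and 45.1-fold without replicate 3 (log2 change -5.49). Without day 0 replicate 2 the log2 change was -6.97. Only 3.55% of its exonic bases were shared with a coding locus. Per the growth protocol the day 0 cells may have been on feeders, and what feeder RNA added to day 0 counts was not tested.

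The next falls were of loci far from coding genes. XLOC_029956 (chromosome 6, 31000556 to 31038938, minus strand) had 409, 1264 and 1555 normalized counts at day 0 and 82.1, 53.3 and 132 at day 6, which is -3.47 on the log2 scale (limma, SE 0.54, adjusted p = 0.00135). XLOC_027849 (chromosome 5, 112641969 to 112658087, minus strand) went from 1927, 1696 and 1721 to 122, 130 and 300 normalized counts, a fall of 9.69-fold with little spread at day 0 (log2 change -3.40, SE 0.35, limma adjusted p = 0.000188). XLOC_000101 (chromosome 1, 37142104 to 37244450, plus strand), with up to 22 exons, went from 1749, 2401 and 2969 to 174, 279 and 287 normalized counts, which is -3.26 on the log2 scale (limma, SE 0.29, adjusted p = 9.3e-05). In each of these 3 the stages did not overlap, and without day 0 replicate 1 the log2 change of XLOC_029956 was -4.06. XLOC_009438 (chromosome 13, 73482113 to 73486100, minus strand) had 1173, 6785 and 4227 normalized counts at day 0, the widest spread of this group, and 351, 370 and 481 at day 6 (log2 change -3.02, SE 0.56, limma adjusted p = 0.00321). Its log2 change was -3.75 without day 0 replicate 1, and its mean fell 6.74-fold without day 0 replicate 2, against 10.1-fold with it.

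XLOC_000394, with the most exons of any of the 258 loci (26), lies on chromosome 1 (95081611 to 95129240, plus strand). It had 3833, 2886 and 5099 normalized counts at day 0 and 450, 418 and 746 at day 6 (log2 change -2.88, SE 0.30, limma adjusted p = 0.000175). The coding locus XLOC_000395, which begins 3234 bases beyond its end on the same strand, also fell, by 2.00 on the log2 scale (limma adjusted p = 0.000131). The difference between the 2 falls did not pass the test (-0.88, SE 0.36, limma adjusted p = 0.126). XLOC_008728 and XLOC_029159 completed the 8 largest falls, with log2 changes of -2.28 and -2.08 (limma adjusted p = 0.000867 and 0.000823). Of these 8 loci 2 shared exonic bases with a coding locus, and in all 8 the stages did not overlap. As with the rises, that gap follows largely from choosing the largest called falls. In 6 of the 8 the day 6 mean was under 500, so those passed the level limit only through day 0.

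**Figure D2:**
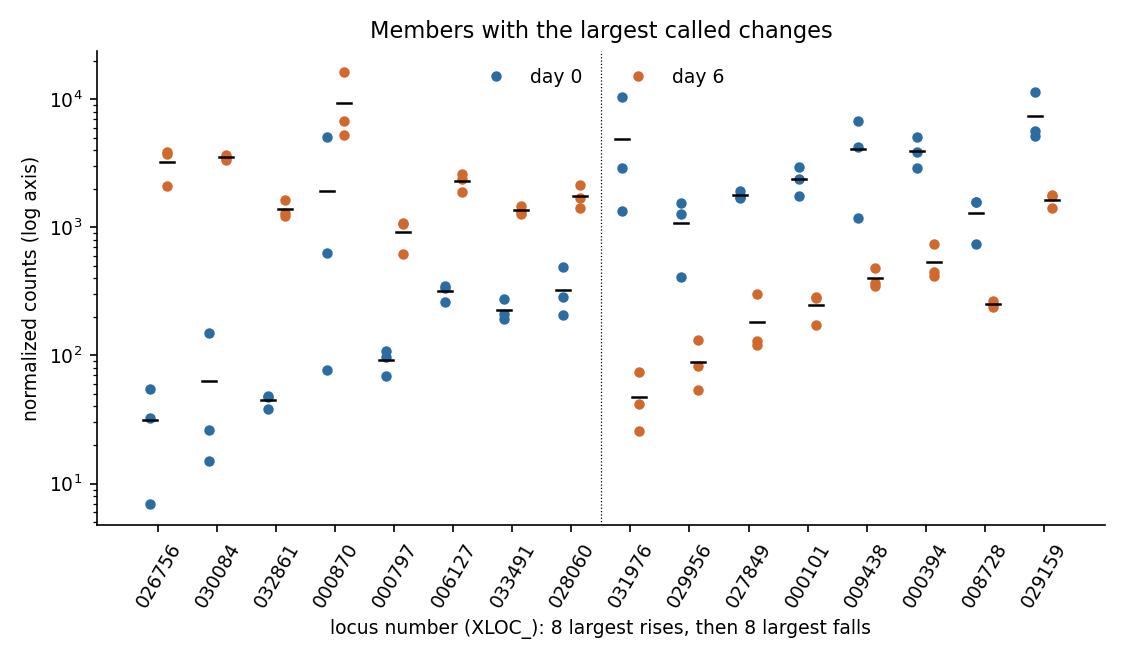
Normalized counts in each library (vertical log axis) of the 8 loci with the largest called rises, left of the dotted line, and the 8 with the largest called falls, right of it; points are libraries and black bars the mean of the 3 libraries of a stage. The stages do not overlap in any of the 16 loci, which follows largely from their choice by called change. XLOC_000870 has the widest spread at day 0, from 77.6 to 5060.

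Exon sharing with coding loci on the opposite strand is a property of the assembly that the choice of loci did not use. Of the 258 loci, 99 (38.4%) had exonic bases that also lay in exons of a coding locus, in every case on the opposite strand, and 0 shared bases on the same strand. Among these 99 the shared part had a median of 35.5% and reached 81.5%. In 23 loci it was over 50 percent, in 62 over 10 and up to 50 percent, and in 14 up to 10 percent. Among the 1221 annotated noncoding loci under the level limit, 427 (35.0%) shared exonic bases, with a median of 24.4%. There too 0 shared bases on the same strand. A locus with a protein identifier in any transcript was classed as coding, so the 0 reflects how loci were built and classed and is no trait of the 258. Without strand, reads from shared bases cannot be told apart, and no source used here says whether counting used strand.

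Loci that share exons were lower per length. Their median was 64.9 normalized counts per exonic kilobase, against 436 for the 159 loci that share none, and 584 for the 9439 coding loci with a mean of at least 500. They were also longer in exonic bases than other classes, with a median of 20674, which lowers the level per length at which a locus passes the limit. The 99 loci held 3.84% of the counts of the 258, and their share of all counts was 0.158% ± 0.00740 in day 0 libraries against 0.152% ± 0.00452 in day 6 libraries (SD over 3; exact permutation p = 0.4). The lowest level per length was that of XLOC_009217 on chromosome 13 (41041361 to 41118144, minus strand), at 11.4 normalized counts per exonic kilobase over 51418 exonic bases, of which 62.6% were shared. It had 816, 643 and 673 normalized counts at day 0 and 471, 443 and 460 at day 6, without overlap (log2 change -0.62, SE 0.21, limma adjusted p = 0.0426, from 0.00184 to 0.165 over 17 alternatives, of which 7 ended the call).

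**Figure D3:**
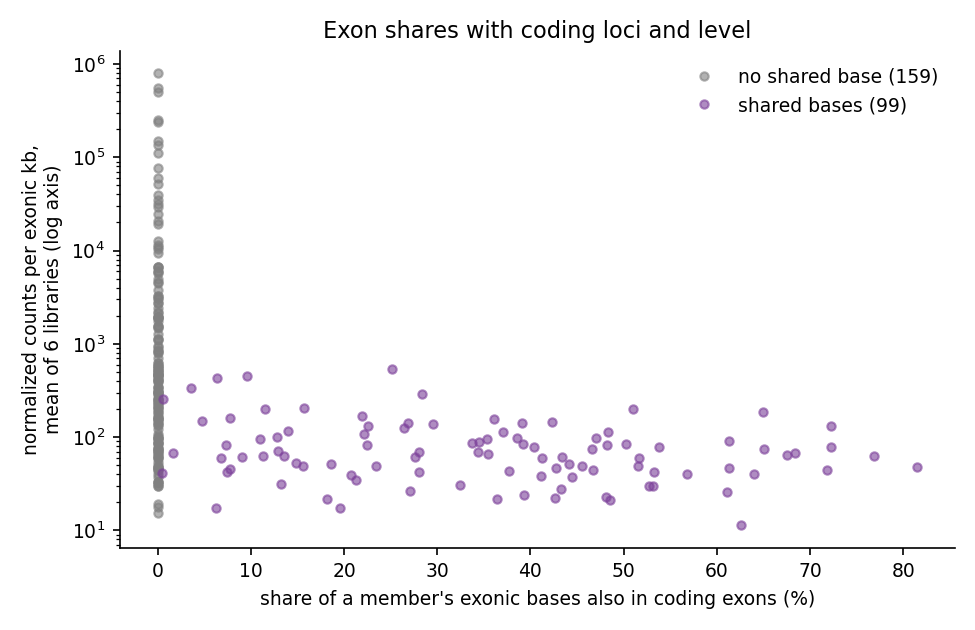
Level of each of the 258 loci as normalized counts per exonic kilobase, averaged over 6 libraries (vertical log axis), against the percentage of its exonic bases that also lie in coding exons (horizontal axis). The 159 loci without shared bases range over the whole axis up to 794004, while the 99 loci with shared bases lie at its low end, with a median of 64.9.

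By position, loci fell into those that share opposite-strand exons (99), those whose span overlaps a coding locus without a shared exon (36), divergent loci with starts within 5 kb (22), loci up to 5 kb downstream of a coding locus on its strand (9), others within 5 kb (14) and loci over 5 kb away (78). Among the loci with shared opposite-strand exons 24 were called higher and 13 lower, with a median log2 change of 0.17. These are 24.2% and 13.1% of the class, beside 26.2% and 16.5% of all tested loci at 500 or more, whose median was 0.12. The median was -0.062 over the 14 loci of the class with up to 10 percent shared, and among 373 tested loci of this class under the level limit 63 were higher and 61 lower. Among the loci over 5 kb away 12 were higher and 24 lower, with a median of -0.07 and a middle range from -0.80 to 0.30, and without day 0 replicate 2 the median was 0.049. Of 286 tested loci over 5 kb away and under the level limit, 45 were higher and 88 lower (median -0.38), so the lean to falls is not particular to the abundant loci. No test compared the classes, and the split of calls between them is a description. The shares called were 37.4% and 46.2% in these 2 classes, beside 44% of all tested loci.

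The remaining classes were small. Of the 36 loci with span overlap, 5 were called higher and 6 lower (median log2 change -0.08), and of the 22 divergent loci 5 were higher and 2 lower (median -0.08). Of the 9 downstream loci 1 was higher and 5 were lower (median -0.65). This median was -0.73 without the 1 mitochondrial locus in the class, -0.40 without day 0 replicate 2 and -0.10 with a limit of 20 kb, which puts 16 loci in the class. The 14 other near loci, 5 of them mitochondrial, had 3 rises and 1 fall (median -0.01). The shares called were 30.6% (span overlap), 31.8% (divergent), 66.7% (downstream) and 28.6% (other near). Over tested loci at 500 or more the share was 42.7%, with 26.2% higher and 16.5% lower. Leaving out a library turned the sign of 2 of these medians: without day 0 replicate 2, that of the span-overlap class was 0.07 and that of the other near loci 0.15. Among tested loci under the level limit, 4 of 21 downstream loci were higher and 2 lower (median -0.07). There, 29 of 193 span-overlap loci were higher and 32 lower (median -0.27). The divergent class had 18 higher and 13 lower of 83 (median 0.24), and the other near class 6 and 12 of 37 (median -0.54).

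The most abundant locus with shared exons was XLOC_015377 on chromosome 17 (95141864 to 95174934, plus strand), with up to 10 exons and 25.1% shared bases. It had 9180, 7550 and 7006 normalized counts at day 0 and 11455, 10484 and 10033 at day 6, all of the latter higher (log2 change 0.44, SE 0.15, limma adjusted p = 0.0415, from 0.00800 to 0.231 over 17 alternatives, of which 7 ended the call). The most abundant divergent locus was XLOC_015793, also on chromosome 17 (35085031 to 35090148, minus strand). It had 12662, 28857 and 12564 normalized counts in undifferentiated cells and 14254, 16633 and 15241 in embryoid bodies, with day 0 replicate 2 far above its fellows (log2 change -0.12, SE 0.30, limma adjusted p = 0.784). That library stood over 2 times above both other day 0 libraries in 12 of the 258 loci (4.65%), against 1.19% of tested loci of at least 500. It stood under 1/2 of both others in 11 of them (4.26%, against 3.64%).

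**Figure D4:**
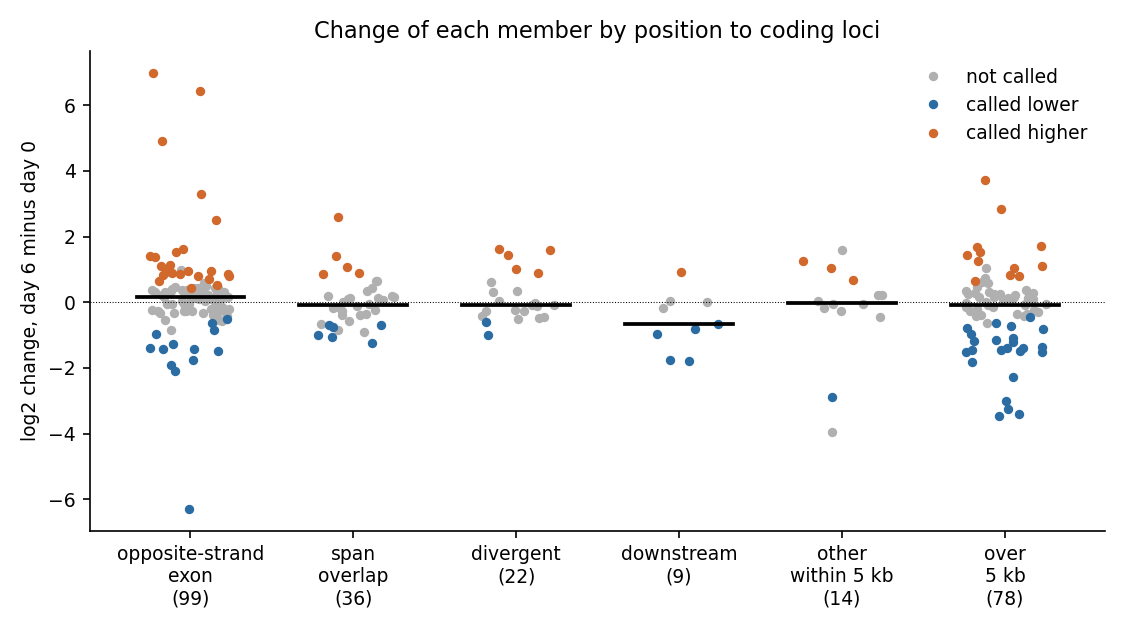
Log2 change from day 0 to day 6 (vertical axis) of each of the 258 loci by position relative to coding loci, with the number of loci in brackets, called rises and falls in colour, other loci in grey, and the class median as a black line. The class medians lie between -0.65 (downstream) and 0.17 (opposite-strand exon), and the 3 highest points, from 4.92 to 6.99, belong to loci that share opposite-strand exons.

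Each locus was then set against a coding partner: the coding locus of the count table with which it shares most exonic bases, else the one whose span it overlaps most, else the nearest within 5 kb. A partner that passed the filter existed for 164 of the 258 loci, with 157 distinct partners, and 6 mitochondrial loci shared 1 of them. The change of the noncoding locus differed from that of its partner in 27 pairs (16.5%), with the noncoding locus the higher in 12 and the lower in 15. Leaving out day 6 replicate 1, 2 or 3 gave 12, 11 or 13 pairs, and leaving out day 0 replicate 3 gave 17. Of the 27, the pair of XLOC_026756 has a partner without a read at day 0, for which the test has no meaning, and without it 26 of 163 pairs differed, 11 with the noncoding locus higher. Over all 860 pairs of annotated noncoding loci 18.3% differed, 7.09% with the noncoding locus higher and 11.2% with it lower. Both loci were called in 25 pairs, of which 10 rose together, 12 fell together and 3 went in opposite directions. Only the noncoding locus was called in 31 pairs, and only the coding one in 34. In all, 56 noncoding loci and 59 partners of the 164 pairs were called. Joint calls were not counted over the 860 pairs, so these counts are a description and do not show that partners change together.

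Across the 78 pairs that share exonic bases, the changes of the 2 loci had a Pearson r of 0.57 and a Spearman rho of 0.55. These 78 include the pair of XLOC_026756, whose partner had no read at day 0, and r without that pair was not computed. Across the 86 pairs that share none, r was 0.24 and rho 0.24. These are descriptions across pairs, which share the 6 libraries, and shared bases can carry the same reads. Per exonic kilobase, 88 of the 164 noncoding loci had a lower level than their partner, 48 of them among the pairs that share exons.

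XLOC_031976, the largest fall, differed most from its partner. The coding locus XLOC_033225 (chromosome 7, 91723798 to 91755535, minus strand) had 4370, 3289 and 3269 normalized counts at day 0 and 4307, 4443 and 4267 at day 6. It was not called (log2 change 0.27, limma adjusted p = 0.223), and the noncoding locus fell by 6.56 on the log2 scale relative to it (SE 0.76, limma adjusted p = 0.00141). In XLOC_029459 it was the partner that moved. This locus (chromosome 6, 92766160 to 92799458, plus strand) had 1151, 478 and 820 normalized counts at day 0 and 713, 679 and 817 at day 6, while its partner XLOC_030326 went from 4702, 2404 and 3067 to 29282, 30444 and 25204. The difference in log2 change was -3.18 (SE 0.28, limma adjusted p = 0.000506), although 23.4% of the noncoding locus's bases lie in the partner's exons.

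The divergent locus XLOC_034668 (chromosome 8, 89996675 to 90059245, plus strand) lies 184 bases from its partner XLOC_035376 on the other strand. It had 857, 582 and 491 normalized counts at day 0 and 415, 494 and 464 at day 6, which overlapped. The partner went from 735, 404 and 358 to 2620, 3269 and 2896, and the difference was -3.07 on the log2 scale (limma, SE 0.25, adjusted p = 0.00044). Only the coding locus of this pair was called changed (adjusted p = 0.000239 in limma, against 0.2).

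In the other direction, the largest fitted difference was that of XLOC_026756 and XLOC_027554, at 2.70 on the log2 scale. It depends on the pseudocount, because the partner had no read at day 0, and does not show that the noncoding locus rose more. XLOC_033491 (chromosome 7, 119809071 to 119823595, minus strand) had 192, 274 and 212 normalized counts at day 0 and 1278, 1319 and 1477 at day 6. Its partner XLOC_032212, whose span it overlaps on the other strand without a shared exonic base, had 6064, 8229 and 3674 and then 6428, 5749 and 5913, with overlapping stages. The difference was 2.51 (SE 0.32, limma adjusted p = 0.00212). XLOC_002696 (chromosome 10, 80288711 to 80292249, plus strand) was not called, at 6706, 6382 and 5480 and then 7039, 7512 and 7020 normalized counts. Its partner XLOC_003448 fell from 678, 275 and 395 to 117, 104 and 122, and the difference was 2.09 (SE 0.36, limma adjusted p = 0.00698).

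In 3 pairs, named after their values were seen, both loci were called and in opposite directions, the noncoding one lower and the coding one higher at day 6. XLOC_011975 (chromosome 15, 61868722 to 62209026, plus strand) went from 5314, 5723 and 6286 to 2652, 2575 and 3141 normalized counts, while XLOC_012586, which lies within its span on the other strand, went from 242, 277 and 193 to 696, 676 and 575. The log2 changes were -1.05 and 1.46, and their difference was -2.51 (SE 0.31, limma adjusted p = 0.00176). XLOC_012244 (chromosome 15, 92174780 to 92225384, plus strand) fell by 0.65 (limma adjusted p = 0.0472, from 0.0149 to 0.133 over 17 alternatives, of which 4 ended the call) and XLOC_012245 rose by 2.26 on the log2 scale. XLOC_010175, a single exon within the span of XLOC_010892 on chromosome 14 (10716609 to 10719382, plus strand), fell by 0.70 (limma adjusted p = 0.0137, from 4.69e-05 to 0.077 over 17 alternatives, of which leaving out day 6 replicate 2 or 3 ended the call) while the coding locus rose by 1.25. No pair of these 3 shares an exonic base.

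**Figure D5:**
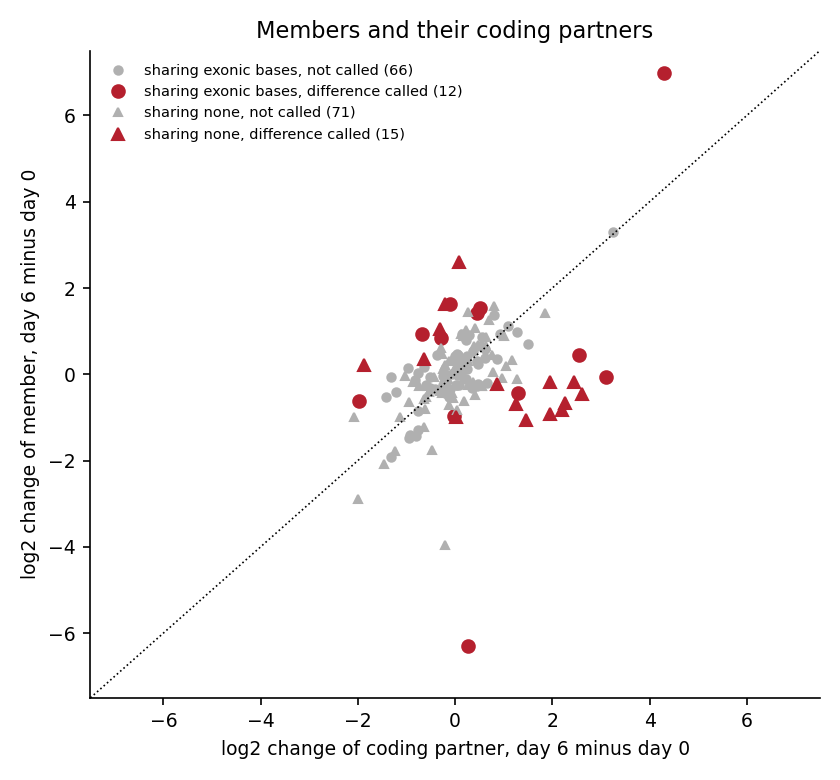
Log2 change from day 0 to day 6 of each noncoding locus (vertical axis) against that of its coding partner (horizontal axis) for 164 pairs; circles share exonic bases, triangles do not, red marks the 27 pairs whose changes differed by limma's test, and the dotted line marks equal change. The changes of pairs that share exonic bases, that of XLOC_026756 included, have a Pearson r of 0.57 and those of other pairs one of 0.24. XLOC_031976 lies farthest below the dotted line.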

How the data were processed

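Poly(A)-selected RNA of 3 day 0 and 3 day 6 libraries of mouse ES cells was used. Per the submitters' processing notes, TopHat2 2.0.8, Cufflinks 2.1.1, HTSeq 0.5.4p3, DESeq and the build mm9 were used. The strand setting and the treatment of shared exons are not stated there. The deposited signal per locus is the authors' read count divided by a size factor per library: all values (100%) were whole reads within 0.01 reads. Reads counted in the listed loci, recovered from these values, numbered 106306699 to 114092201 per library. Without molecular identifiers, PCR copies of a molecule are counted more than once. Columns left unused numbered 0.

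Classes and positions came from the exon records of the authors' merged assembly. Of 61665 locus and annotation identifiers, 0 were found in the gene name tables used, so no names are given, and the marker and noncoding gene lists set for symbols were not tested. The loci, lists and tests were chosen with earlier results of these data known.

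The stages were compared on log2(normalized count + 1) with limma 3.58.1 (R version 4.3.3), using lmFit and a robust eBayes with a mean-variance trend. The 17145 loci that reached 10 normalized counts in 3 or more libraries were tested, two-sided, with Benjamini-Hochberg adjustment and a threshold of 0.05. Pairs were tested in limma on the log2 difference between noncoding locus and partner in each library, over 860 pairs. Shares were compared by two-sided exact permutation tests, which use no size factor. The limma p-values weigh a stage difference against the spread between these libraries, which eBayes moderates across all tested loci or pairs. The steps were also run on simulated counts with few changed loci and the same spread in both stages. That setting differs from these data, so it does not check the calls made here. The rule for named loci took the 10 most abundant, the 8 largest called rises and falls, the most abundant of each position class with its partner, the 3 largest called pair differences in each direction, the 3 loci on either side of the limit, and the highest and lowest per exonic kilobase. Alternatives included edgeR 4.0.16 and DESeq2 1.42.0 on recovered reads, other scalings, filters and limits, a replicate block, and leaving out each library. Python 3.11.15, pandas 2.3.3, numpy 2.4.6, scipy 1.17.1 and matplotlib 3.10.9 were used.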

Additional observations from a re-analysis of the deposited data

How the results depend on the processing

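The fall in the share of counts kept its direction under all 14 alternatives run, from -0.585 to -0.455 percentage points with 1 library left out. Of the 101 calls, 65 were kept in all 17 refits, 100 with DESeq2, 99 with edgeR and 93 with quantile normalization; no called change of a named locus changed sign, while 8 of the 37 named loci, none of them called, had values of both signs, and 588 of 629 values kept their side of the threshold. Leaving out 1 library gave 67 to 119 calls, 31 to 60 higher and 36 to 60 lower, with the lowest counts without day 6 replicate 2, and 11 to 29 pairs that differed. Over all 17145 tested loci these refits gave 5143 to 8890 calls, against 7543 with every library. With other members the count called higher was 33 (mean of at least 1000), 28 (at most 10% shared), 26 of 64 calls (no shared base) and 33 (500 in both stages, chosen after seeing the data), and 78 were lower at a mean of at least 250; these settings change how many loci enter. Of pairs that share no exonic base, 15 differed. Class medians moved as follows. DESeq2 gave -0.16 (divergent) and -0.72 (downstream), and quantile normalization -0.24 (span overlap), -0.18 (divergent), -0.81 (downstream) and -0.074 (other near). A limit of 1 kb gave 0.013 (divergent) and -0.47 (downstream), 20 kb gave -0.10 (downstream), and coding neighbours of the count table gave 0.013 (divergent) and -0.73 (downstream). The downstream median was -0.73 without mitochondrial loci, chosen after seeing the data, and the median for opposite-strand exons was -0.062 at most 10% shared. With 1 library left out, medians ran from -0.16 to -0.010 (divergent), -0.78 to -0.40 (downstream), 0.10 to 0.22 (opposite-strand exon), -0.050 to 0.15 (other near), -0.25 to 0.049 (over 5 kb) and -0.20 to 0.073 (span overlap); the cause was not tested. Whether day 0 and day 6 libraries of the same replicate number belong together is not known. Deviations of same-numbered libraries correlated at 0.18, 0.13 and 0.07, and 3 of 3 day 0 libraries correlated best with their own number. With the replicate block 104 loci were called, 54 higher and 50 lower, and 23 pairs differed. Reads counted in the listed loci numbered at least 106306699 in each library, and the sequencing depth itself is not given here.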
